A study of Mus musculus with 6 samples.

Results

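The genes described here are the ligands and receptors of the tumour necrosis factor (TNF) superfamilies and the genes named after the TNF receptor-associated factors (TRAFs), measured in myospheres grown from mouse muscle. Membership is set by gene names and by no measured value. A member is a gene whose symbol begins with Tnfsf, Tnfrsf or Traf and a digit, or one of Tnf, Lta, Ltb, Ltbr, Fas, Fasl, Cd40 and Cd40lg, provided that a probe set of the arrays was annotated to that gene and no other. This gave 44 genes of the 18193 with such a probe set: 13 ligands, 22 receptors and 9 TRAF-named genes. They were measured by 73 of the 45265 probe sets, of which 60 were on the chip MOE430A and 13 on MOE430B. There were 6 Affymetrix arrays, replicates 1 to 3 on each of these 2 chips, and a single group. Its cells came from the hind-leg muscle of male Balb/c mice, were enriched by flow sorting for the Sca1 antigen, and grew for 4 days in NeuroCult medium with LIF, B27, EGF and an additive that the labels spell bf6f. Total RNA was taken at passage 1 from 2000000 cells, in 5 µL described as a small sample. With no second condition, the design asks which members gave a signal above background and how well the replicates matched. The labels do not say that the replicates are separate cultures, so the spread between arrays may be technical, and the p-values below measure that spread alone.

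TNF superfamily ligands are trimeric proteins, mostly held at the cell surface and released by cleavage, that cluster their receptors on the same or a neighbouring cell. Receptors with a death domain recruit adaptors that can start cell death, whereas most others bind TRAF proteins, which pass the signal to NF-kappaB and to the MAP kinases. Decoy and soluble receptors bind ligand without passing on a signal. In muscle, TNF is known for its part in inflammation and wasting, and the receptor Tnfrsf12a for its response to injury.

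Values are MAS5 signals, the linear intensity summary of a probe set, scaled by the authors to 1 trimmed mean on every array. Background was read from probe sets for genes of other tissues, among them olfactory receptors, defensins and sperm proteins, whose 95th percentile gave the limit of an array. For MOE430A the limit was 819 in replicate 1, 784 in replicate 2 and 822 in replicate 3. For MOE430B it was 3237, 2929 and 2542. A probe set is called above the limit if all 3 arrays that carry it exceed theirs, and any such probe set makes its gene count as above. By this rule 2.65% of the reference probe sets on MOE430A and 4.55% on MOE430B were above. The limit is a percentile of these same probe sets, so a low share follows from the rule. Genes below the limit may still be expressed, and in a culture of mixed cells a few cells with much RNA cannot be told apart from many cells with little. The 3′ to 5′ signal ratio of the Gapdh control ran from 11.9 to 16.5 on MOE430A and from 13.8 to 16.5 on MOE430B, and its part in any member's level was not tested. Of listed markers, 9 of 9 measured for fibroblasts and mesenchymal progenitors were above the limit, 0 of 8 for myogenic cells, 5 of 10 for macrophages and other myeloid cells, 3 of 6 for endothelium, 1 of 7 for T cells and 0 of 6 for B cells. The myeloid markers above were Csf1r, Adgre1, Cd14, Lyz2 and Laptm5, whereas Ptprc, Cd68, Tyrobp, Fcer1g and Itgam were not. The muscle markers Pax7, Myf5, Myod1, Myog, Des, Acta1, Ckm and Myh3 did not pass, Myod1 and Myog being above on 2 of 3 arrays, so the myogenic cells of the labelled tissue were not seen in these markers. Which cells gave the members' signals was not tested.

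The stretches upstream of 4 members are shown because the results turn on them: both receptors with the widest margin over the limit, the 1 ligand above it, and Tnf, the ligand that gives the family its name and was below it. Each is the 250 bases before the gene's annotated start, 5′ to 3′ in the direction of the gene, taken from RefSeq with the mouse build GRCm38.p6. Capitals mark each CG dinucleotide.
Tnfrsf12a, chr17:23677450-23677699, minus strand: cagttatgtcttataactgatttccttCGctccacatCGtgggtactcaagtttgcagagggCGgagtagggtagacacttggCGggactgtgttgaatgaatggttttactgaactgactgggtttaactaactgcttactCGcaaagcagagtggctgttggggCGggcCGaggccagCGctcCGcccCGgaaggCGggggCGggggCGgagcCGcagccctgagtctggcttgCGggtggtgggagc
Tnfrsf1a, chr6:125349473-125349722, plus strand: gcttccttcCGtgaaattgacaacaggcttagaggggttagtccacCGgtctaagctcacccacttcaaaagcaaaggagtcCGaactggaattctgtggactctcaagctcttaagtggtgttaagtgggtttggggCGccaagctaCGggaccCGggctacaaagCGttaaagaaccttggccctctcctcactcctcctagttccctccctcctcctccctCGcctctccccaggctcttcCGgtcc
Tnfsf11, chr14:78308044-78308293, minus strand: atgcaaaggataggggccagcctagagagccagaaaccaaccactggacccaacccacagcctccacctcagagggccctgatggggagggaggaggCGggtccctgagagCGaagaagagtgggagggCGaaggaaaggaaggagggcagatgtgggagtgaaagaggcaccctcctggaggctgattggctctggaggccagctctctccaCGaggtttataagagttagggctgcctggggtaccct
Tnf, chr17:35202008-35202257, minus strand: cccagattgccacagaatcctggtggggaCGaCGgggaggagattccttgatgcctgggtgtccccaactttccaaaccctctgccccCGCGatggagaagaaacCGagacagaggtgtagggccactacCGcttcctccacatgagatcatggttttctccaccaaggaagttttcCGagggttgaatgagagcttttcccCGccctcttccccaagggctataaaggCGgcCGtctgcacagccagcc
The CG dinucleotide was present 15 times upstream of Tnfrsf12a, 9 times upstream of Tnfrsf1a, 4 times upstream of Tnfsf11 and 10 times upstream of Tnf. The letters TATAAA were found on the printed strand of the Tnf stretch, with the first base at position -29 from the start, and on the opposite strand of the Tnfsf11 stretch. The stretches of Tnfrsf12a and Tnfrsf1a held them on neither strand. RefSeq entries were matched for 35 of the 44 members, and a gene with more than 1 entry was read by the entry with the most CG dinucleotides. The median CG count was 12 for the 8 matched members above the limit and 8 for the 27 not above it, against 18 for the 5366 genes of the arrays above the limit and 10 for the 9086 not above. By role it was 6 for the ligands, 9.5 for the receptors and 12.5 for the TRAF-named genes. The ligands' stretches were thus the poorest in CG of these 3 groups. TATAAA, searched on both strands in the same 250 bases, was present for 5 of the 35 members (14.3%), for 8.48% of all measured genes and for 12.4% of all 32851 promoters in the table. A match of letters is a description of the sequence and not a binding site.

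Of the 44 members, 10 (22.7%) were above the limit, against 36.2% of all 18193 genes measured. They were the ligand Tnfsf11, the receptors Tnfrsf12a, Tnfrsf1a, Tnfrsf1b, Ltbr and Tnfrsf22, and the TRAF-named genes Traf2, Traf3ip2, Traf5 and Traf7. A further 7 members exceeded the limit on 2 of 3 arrays, 4 on 1 array and 23 on none. All members above the limit were so on MOE430A, where 11 of 60 member probe sets passed (18.3%, against 35.6% of all single-gene probe sets). On MOE430B 0 of 13 passed, against 13.5% of all. Counted on MOE430A alone, 10 of 41 members were above, against 42.7% of all genes there. The share of members above the limit therefore lay below the share of all genes in each of these counts, with no test made of the difference. The median over members of the median ratio of signal to limit was 0.624, against 0.769 over all genes. It was 0.553 for ligands, 0.547 for receptors and 1.13 for TRAF-named genes.

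**Figure D1:**
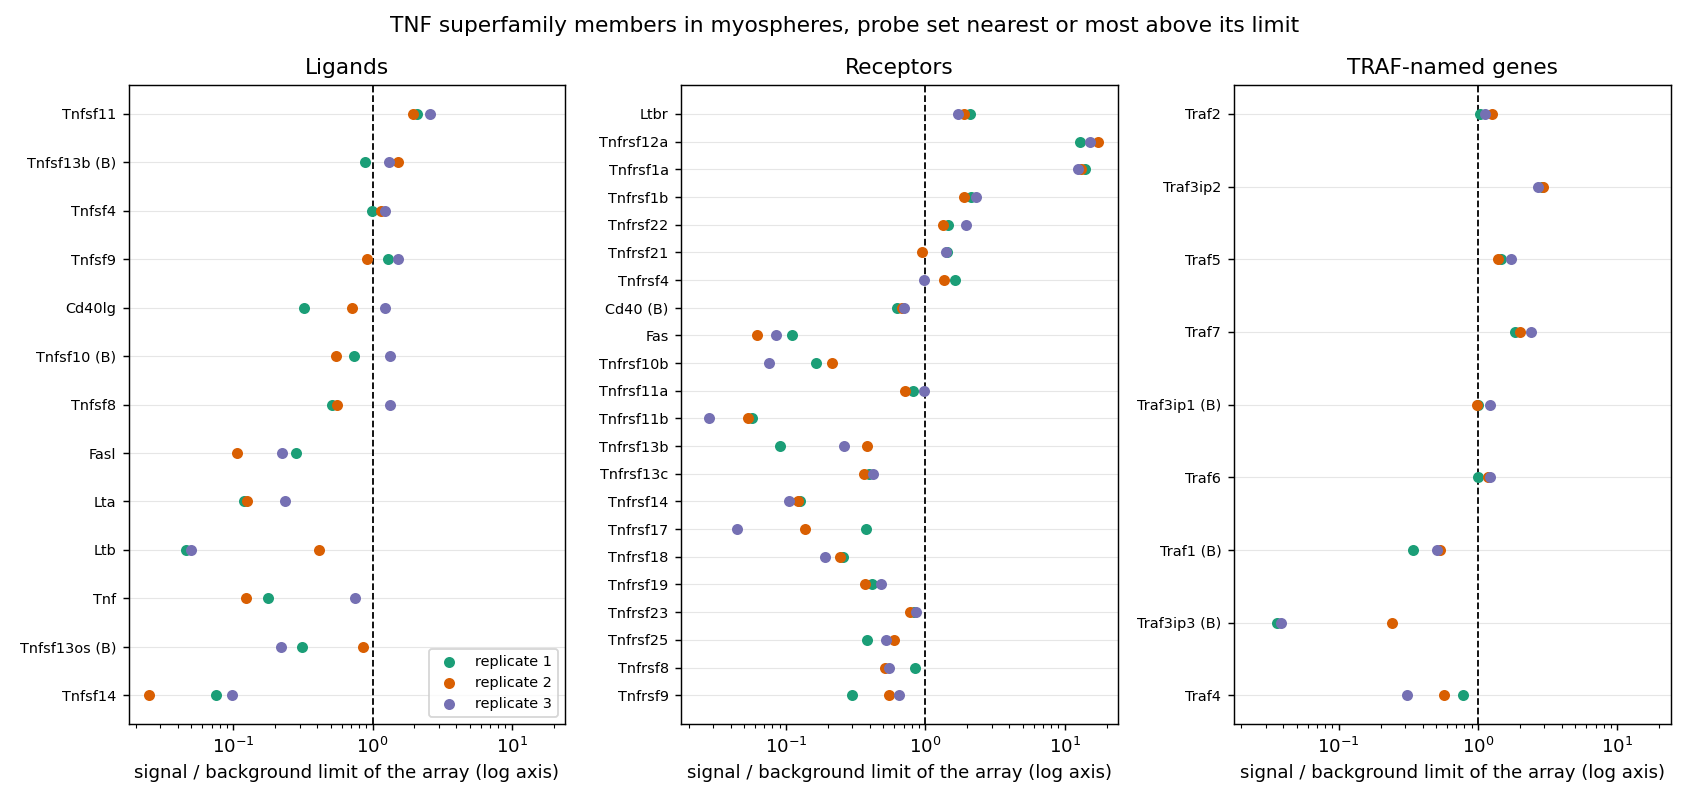
Signal divided by the background limit of its array (log axis; the dashed line at 1 is the limit) for every member, grouped by role, with 1 point per replicate; (B) marks genes shown by an MOE430B probe set. For each gene the probe set with the highest lowest ratio is drawn, so Cd40 appears below the limit although another of its probe sets exceeded it on 1 array. The 3 points of Tnfrsf12a and Tnfrsf1a lie at 12.5 or more, and those of most ligands below 1.

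Among the ligands, Tnfsf11 alone was above the limit. Tnfsf11 is the RANK ligand, which drives the formation of osteoclasts. Its probe set 1419083_at gave 1707, 1526 and 2133 in replicates 1, 2 and 3, a mean of 1789 ± 311 (SD, n = 3), and its lowest array stood at 1.95 times the limit. The gene's other probe set, 1451944_a_at, gave 114, 19.0 and 422, below the limit on every array, so the call rests on 1 of the gene's 2 probe sets. With a replicate left out only the remaining arrays had to pass, so the ligand count could rise but not fall. It was 3 without replicate 1, 2 without replicate 2 and 1 without replicate 3.

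Of the other ligands, 3 were above on 2 arrays. Tnfsf4, the OX40 ligand that costimulates T cells, gave 808, 897 and 1009, with replicate 1 just below its limit. Tnfsf9, a costimulatory ligand of antigen-presenting cells, gave 1053, 713 and 1243, with replicate 2 below. Tnfsf13b, the B cell survival factor BAFF, gave 2877, 4489 and 3331 on MOE430B, with replicate 1 below, and its other probe sets were under the limit on every array. These 3 genes are the ones that passed when replicate 1 (Tnfsf4 and Tnfsf13b) or replicate 2 (Tnfsf9) was left out.

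Replicate 3 alone exceeded the limit for each of the next 3 ligands. Cd40lg, the T cell ligand of Cd40, gave 265, 561 and 1011. Tnfsf8, the CD30 ligand, gave 419, 433 and 1104, and Tnfsf10 (TRAIL), an inducer of apoptosis, gave 2376, 1590 and 3375 on MOE430B. The other probe sets of Tnfsf10 were below the limit on every array.

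The classical cytokines of the family were below the limit on all 3 arrays. Tnf, the main product of activated macrophages, gave 147, 96.9 and 620, with replicate 3 nearest its limit. Lta, the soluble lymphotoxin, gave 97.5, 97.7 and 193, and Ltb, which anchors it to the membrane, gave 37.3, 321 and 40.8. Fasl, the death ligand of cytotoxic lymphocytes, gave 232, 82.9 and 184 by the first of its probe sets and 77.4, 168 and 306 by the other. Tnfsf14 (LIGHT), a further ligand of Ltbr, and Tnfsf13os, an RNA named as opposite strand to Tnfsf13 that meets the naming rule without being a ligand, were also below the limit on every array.

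Of 5 receptors with a death domain, Tnfrsf1a was the 1 above the limit. It is the broadly expressed first TNF receptor, which binds Tnf and Lta and can signal both to NF-kappaB and to cell death. Its probe set 1417291_at gave 11403, 10246 and 10302, a mean of 10650 ± 653 (SD, n = 3), and the lowest array stood at 12.5 times the limit. The 3 arrays were close together, with a coefficient of variation of 6.13%. Tnfrsf21, death receptor of neurons and lymphocytes, gave 1172, 741 and 1154 by 1422740_at and fell below the limit in replicate 2 alone. Its other probe set, 1450731_s_at, gave 360, 268 and 276, below the limit on every array. Fas, the receptor of Fasl, gave 90.5, 48.9 and 69.2, and Tnfrsf10b, the TRAIL death receptor of the mouse, gave 135, 167 and 62.2 by its probe set nearest the limit. Tnfrsf25, a death receptor of T cells, gave 313, 467 and 431, so these 3 genes were below the limit on every array.

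Among 3 decoy or soluble receptors, Tnfrsf22 passed. Tnfrsf22 is a decoy receptor for TRAIL in the mouse and has Tnfrsf23 as a close relative. Its probe set 1426095_a_at gave 1202, 1054 and 1619, a mean of 1292 ± 293 (SD, n = 3), and its lowest array stood at 1.34 times the limit. The gene's other 2 probe sets gave 841, 548 and 393, and 45.1, 41.2 and 87.2, so they did not pass, and the probe set that did carries a suffix for sequence shared among transcripts. Tnfrsf23, a decoy of the same kind, gave 675, 608 and 701, below the limit with its lowest array at 0.776 of it. Tnfrsf11b (osteoprotegerin), the soluble receptor that captures Tnfsf11, gave 46.6, 41.6 and 23.1.

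The largest receptor class, 14 genes that bind TRAFs and have no death domain, held 3 members above the limit. Tnfrsf12a (Fn14), the receptor of the ligand TWEAK, gave 10624, 13615 and 12534 by probe set 1418571_at, a mean of 12258 ± 1514 (SD, n = 3), and 9513, 11768 and 13132 by probe set 1418572_x_at, a mean of 11471 ± 1828. Replicate 1 was the lowest for both, at 12.97 and 11.6 times the limit. Tnfrsf12a was the 1 member with more than 1 probe set whose probe sets were all above the limit.

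Tnfrsf1b, the second TNF receptor, which prefers membrane-bound Tnf, gave 1755, 1488 and 1907 by probe set 1418099_at, a mean of 1716 ± 212 (SD, n = 3), with the lowest array at 1.90 times the limit. Its probe set 1448951_at gave 557, 685 and 733 and was below the limit on every array. Ltbr, the lymphotoxin beta receptor of stromal cells, gave 1728, 1489 and 1411 by its only probe set, 1416435_at, a mean of 1542 ± 165 and at least 1.72 times the limit. Both genes thus cleared the limit on each array by less than Tnfrsf1a and Tnfrsf12a did.

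Tnfrsf4, the OX40 receptor of T cells, gave 1343, 1073 and 799.8, and replicate 3 fell just below its limit. Cd40, the costimulatory receptor of B cells and macrophages, was above on 1 array by 1 of its 3 probe sets, with 415, 864 and 258. The other 9 were below the limit on every array. Tnfrsf11a (RANK), the receptor of Tnfsf11, gave 668, 562 and 799, the nearest of these to its limit. The rest were Tnfrsf8, Tnfrsf9, Tnfrsf13b, Tnfrsf13c, Tnfrsf14, Tnfrsf17, Tnfrsf18 and Tnfrsf19, most of them known from lymphocytes. Over the members above on fewer than 2 arrays, the lowest ratio to the limit by the best probe set ran from 0.0246 (Tnfsf14) to 0.776 (Tnfrsf23).

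Of the 9 TRAF-named genes 4 were above the limit and 2 more on 2 arrays. The name covers different proteins: Traf3ip1, Traf3ip2 and Traf3ip3 bind TRAF3 and are not TRAFs themselves. Traf3ip2 (Act1), the adaptor of the interleukin-17 receptor, gave 2342, 2306 and 2201 by probe set 1448508_at, a mean of 2283 ± 73.2 (SD, n = 3) with the lowest array at 2.68 times the limit. Its coefficient of variation of 3.21% was the smallest among the 11 member probe sets above the limit. Traf7, an atypical member that carries WD40 repeats in place of the usual TRAF domain, gave 1521, 1565 and 1966 by 1424320_a_at, a mean of 1684 ± 245 and at least 1.86 times the limit.

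Traf5, an adaptor related to Traf2, gave 1207, 1095 and 1412 by 1448861_at on MOE430A, a mean of 1238 ± 161 (SD, n = 3) and at least 1.40 times the limit. On MOE430B its probe set 1447682_x_at gave 1791, 1821 and 964, below that chip's limit on every array. Traf2, the adaptor that both TNF receptors use to reach NF-kappaB, gave 852, 990 and 927 by 1451233_at, a mean of 923 ± 68.8, and cleared the limit by little, at 1.04 times in replicate 1. Traf2 is therefore the member above the limit with the smallest margin.

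Traf6, which also serves interleukin-1 and Toll-like receptors, gave 816, 932 and 1006 by 1421376_at, with replicate 1 just below its limit. Each of its other probe sets was above on 1 array at most. Traf3ip1, a protein of the primary cilium, gave 3259, 2901 and 3097 on MOE430B, with replicate 2 just below. Traf1, an adaptor induced in activated lymphocytes, Traf4 and the lymphocyte gene Traf3ip3 were below the limit on every array.

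Ligands and receptors with partners among the members gave the following calls. For TNF, both receptors, Tnfrsf1a and Tnfrsf1b, were above the limit and both ligands, Tnf and Lta, were below it on every array. For lymphotoxin, Ltbr was above while Ltb and Tnfsf14 were below. For RANK the order was the reverse: the ligand Tnfsf11 was above, while the receptor Tnfrsf11a and the soluble receptor Tnfrsf11b were below. For TRAIL, the ligand Tnfsf10 was above on 1 array, the death receptor Tnfrsf10b on none and the decoy Tnfrsf22 on all 3. For OX40, the ligand Tnfsf4 and the receptor Tnfrsf4 were each above on 2 arrays, and both were called with the 90th percentile, with the array median as limit and with 2 of 3 arrays required. The ligand of Tnfrsf12a, Tnfsf12, had no probe set of its own in the annotation used here; a probe set annotated to both Tnfsfm13 and Tnfsf12 gave 1434, 1276 and 1486, at least 1.63 times the limit. Levels of different probe sets have no common scale, so these are calls against each array's limit and not amounts.

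The number of probe sets per gene bears on these calls, since a gene passes by any 1 of them. Of members with 1 probe set 5 of 24 were above the limit, against 22.1% of all such genes. Of members with 2 it was 4 of 13, against 42.4%, and of members with 3 or more 1 of 7, against 59.1%. Members with 1 probe set were thus near the share of all genes, and the gap lay in those with several, though the numbers are small.

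**Figure D2:**
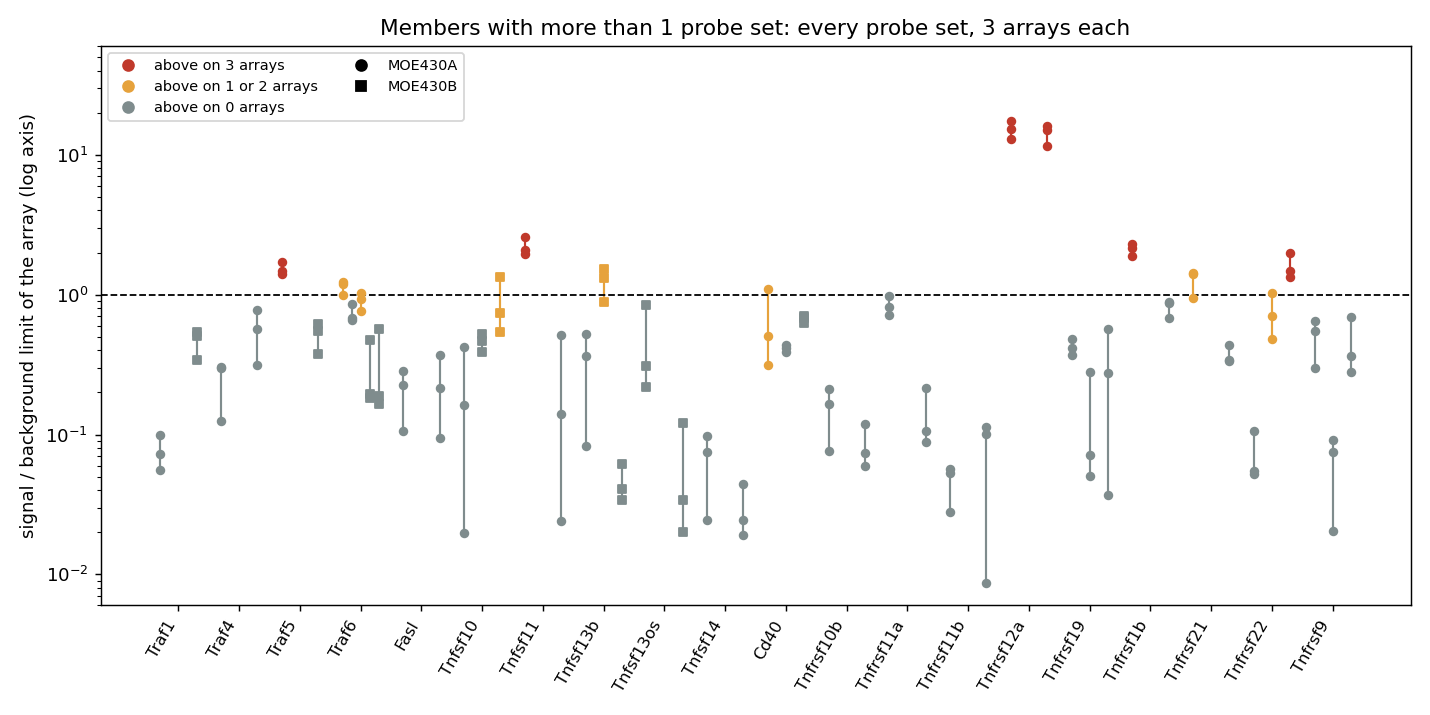
Signal divided by the background limit of its array (log axis; dashed line at the limit) for every probe set of the members that have more than 1, with 3 points joined per probe set, circles for MOE430A and squares for MOE430B. Colour gives the number of arrays above the limit. Both probe sets of Tnfrsf12a stand above it, while Tnfsf11, Tnfrsf1b, Tnfrsf22 and Traf5 each have 1 probe set above and the others below.

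Other genes of the pathway were taken from 5 lists, none of them members: superfamily genes under other names and 4 lists of genes that act downstream of the receptors. The lists were chosen with earlier results of these data known, so their shares are descriptions and not independent tests. In all 44 of 68 measured (64.7%) were above the limit, against the 36.2% of all genes. The list genes have from 1 to 7 probe sets each, and the list shares were not split by that number. Of all genes, 22.1% with 1 probe set passed and 59.1% with 3 or more, so 36.2% is not a matched comparison for the lists. Without the list of superfamily genes the count was 43 of 60 (71.7%). Of the list of superfamily genes with other names, 1 of 8 passed. Relt, a receptor found in haematopoietic tissue, gave 5833, 5412 and 5026 on MOE430B. Ngfr, Cd27, Cd70, Eda, Edar, Eda2r and Edaradd did not, the last being an adaptor of Edar and neither ligand nor receptor. That share, like the members' own, was below that of all genes.

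Of the death and survival genes, 8 of 12 (66.7%) were above the limit, against 36.2% of all genes. They were Tradd, Fadd, Ripk3, Mlkl, Cflar, Birc3, Xiap and Daxx. Tradd, the first adaptor at the Tnfrsf1a death domain, gave 1108, 1327 and 1164, and Fadd, which joins death receptors to caspases, gave 1592, 1468 and 1451. Ripk3, a kinase of necroptosis, gave 1442, 1254 and 1318, and Mlkl, the pore-forming protein it activates, gave 5790, 5073 and 5059 on MOE430B. Members of both the apoptotic and the necroptotic branch thus gave signal on every array, whereas Casp8, Birc2, Bid and Cradd did not pass.

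Of the genes of the ubiquitin and kinase relay, which carries the signal from TRAFs to NF-kappaB and MAP kinases, 15 of 22 were above. That share was 68.2%, against 36.2% of all genes. Rnf31, the catalytic subunit of the linear ubiquitin ligase, gave 4775, 3241 and 2884 on MOE430B, and its partner Sharpin gave 2469, 2838 and 2533. Cyld, which removes such chains, gave 4970, 5051 and 4245 on MOE430B, and the kinase Tbk1 gave 3731, 3801 and 3508. The others above were Tab2, Map3k14, Map3k5, Map3k1, Map3k3, Ikbkb, Ikbkg, Map2k4, Mapk8, Mapk9 and Mapk14. Map3k14 is the kinase of the non-canonical branch used by Ltbr and Tnfrsf12a. Rbck1, Otulin, Tank, Ikbke, Tab1, Tab3 and Map3k7 did not pass. The list therefore had genes above the limit both at the ubiquitin ligase and at the MAP kinases, with others between them not above.

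Of the NF-kappaB subunits and inhibitors 3 of 8 were above, close to the share of all genes. Rela, the main activating subunit, gave 3093, 2290 and 2766. The inhibitors Nfkbia, itself a target of NF-kappaB, and Nfkbib gave 75204, 106600 and 94239, and 1676, 1708 and 1952. Nfkb2, Rel, Relb, Nfkbie and Bcl3 did not pass.

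Of 18 genes listed as induced by TNF, 17 (94.4%) were above the limit, against 36.2% of all genes, while Tnf was not. Tnfaip2 gave 22339, 48862 and 29459, and Tnfaip3, the A20 protein that ends NF-kappaB signalling, gave 6397, 5115 and 7178 on MOE430B. Tnfaip6, which binds hyaluronan, gave 962, 802 and 1310, and Tnfaip8 gave 2796, 3235 and 2386. The other 13 above were Ccl2, Ccl7, Cxcl1, Cxcl5, Icam1, Vcam1, Il6, Csf1, Sod2, Ptgs2, Mmp3, Mmp9 and Litaf. Litaf is on the list although its name, LPS-induced TNF factor, does not make it a target of TNF. Cxcl10, a chemokine that interferon also induces, was the 1 below, with 212, 89.96 and 253. These genes respond to many signals besides TNF, and no unstimulated culture was measured for comparison. As the list was chosen with earlier results of these data known, its share is no independent measure of a response to TNF.

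**Figure D3:**
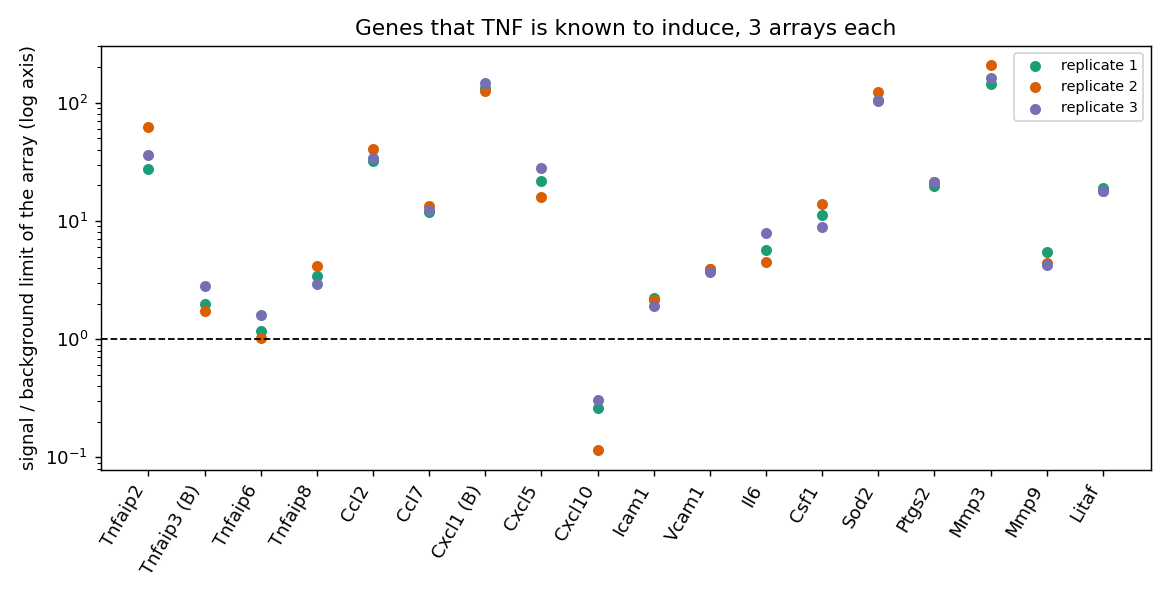
Signal divided by the background limit of its array (log axis, dashed line at the limit) for the 18 genes listed as induced by TNF. Each replicate has 1 point, and (B) marks genes shown by an MOE430B probe set. Litaf is included, although its name does not make it a target of TNF. All points but those of Cxcl10 lie above the line, with Tnfaip6 nearest to it at 1.02 in replicate 2.

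The calls of 7 of the 10 members above the limit held under every alternative run for them: Tnfrsf12a, Tnfrsf1a, Tnfrsf1b, Ltbr, Tnfsf11, Traf3ip2 and Traf7, the last with 1 alternative fewer, as its only probe set has an _a_at suffix. The other 3 lost the call under at least 1. Traf2 stood at 0.663 of a limit set at the 99th percentile and at 0.939 of a limit set by receptor families alone. Traf5 stood at 0.940 with the 99th percentile and at 0.379 when each gene was read by its probe set of highest mean signal, which is then the one on MOE430B. Tnfrsf22 stood at 0.936 with the 99th percentile and at 0.478 without probe sets of shared sequence. Of the 34 members not above, 12 passed under at least 1 alternative and 22 under none.

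**Figure D4:**
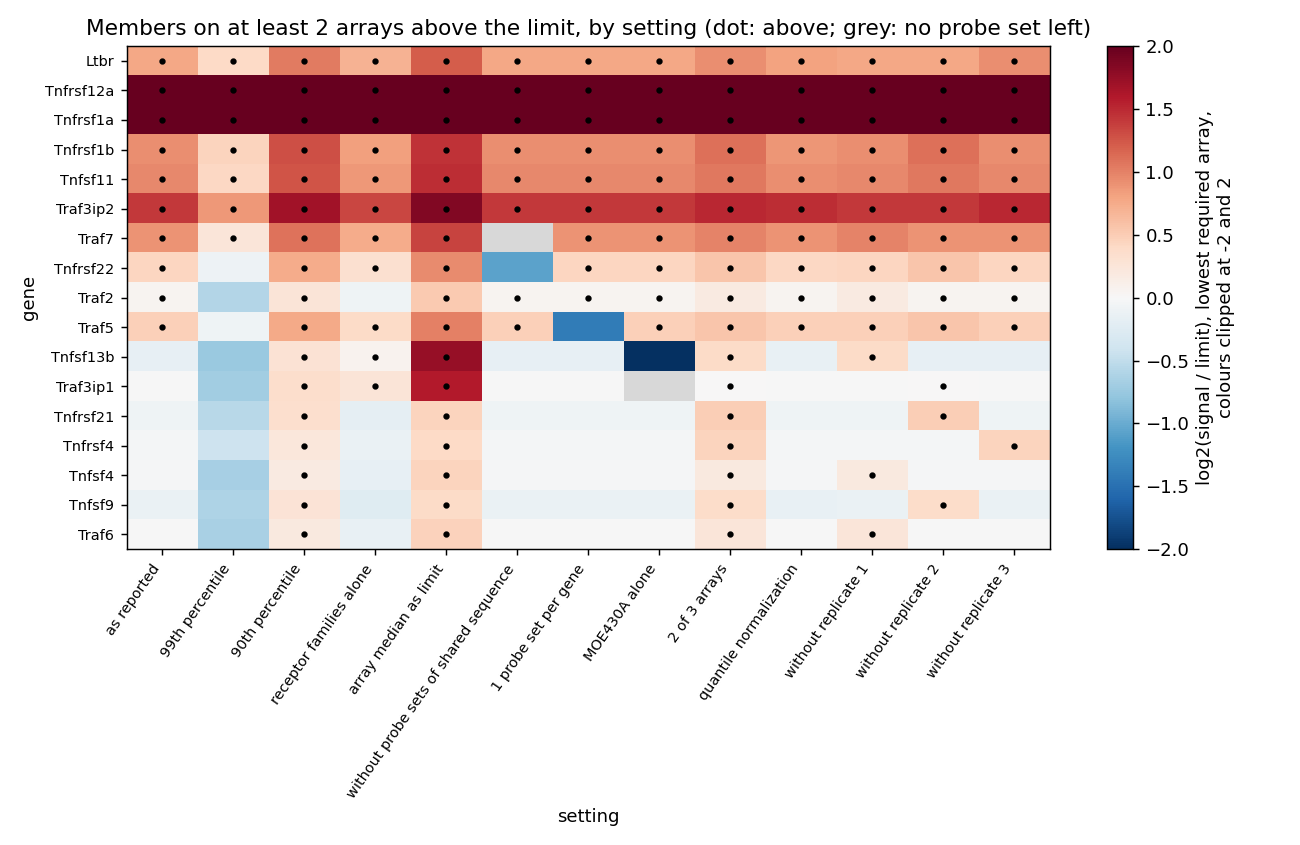
The lowest ratio of signal to limit among the required arrays (log2 colour scale, clipped at both ends; red above the limit) for the 17 members above the limit on at least 2 arrays, by processing setting, with a dot where the gene is above and grey where no probe set is left. Tnfrsf12a and Tnfrsf1a are dark red under every setting, and Traf2, Traf5 and Tnfrsf22 lose the dot under the 99th percentile.

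The spread between replicates of the members was set beside that of all probe sets of the chip. The coefficient of variation of the 11 member probe sets above the limit on MOE430A ran from 3.21% to 22.7%, with a median of 12.4%, against 12.95% for all probe sets above the limit there. For the 39 member probe sets below the limit on every array the median was 43.7%, against 37.8% for all such probe sets. Signals below the limit thus varied more between arrays than signals above it, for the members as for all genes.

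Replicates were also compared with limma's moderated F-test on genes with signal above the mean limit on both chips. The test links the arrays of the same number on both chips as 1 replicate, which the labels do not state. Deviations of same-numbered arrays correlated at -0.015, 0.437 and 0.1 for replicates 1, 2 and 3. Replicate 3 of MOE430A correlated at 0.223 with replicate 1 of MOE430B, and replicate 1 of MOE430A at 0.332 with replicate 3 of MOE430B. The data thus bear out the link for replicate 2 and not for replicates 1 and 3. The F-test called 7 of 619 genes (1.13%) at an adjusted p under 0.05, with 64 at an unadjusted p under 0.05, and no member was among the genes fitted. The count was 0 without replicate 2 and 3 without replicate 3. With every gene that has probe sets on both chips fitted, limma called 0 of 3807 (92 unadjusted). The 6 members then in the fit were Cd40, Tnfsf10, Tnfsf13b, Traf1, Traf5 and Traf6, with adjusted p from 0.942 to 0.967 and 0 of them at an unadjusted p under 0.05. Differences between replicates were thus not detected for these 6 by a test that rests on that link, which does not show that they were equal.

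The chips do not share a scale, which is why each member was read against the limit of its own chip. Of the 100 probe sets carried by both, limma called 100 (100%), all higher on MOE430B, with a median log2 difference of 1.86, or 3.62-fold, and none of them measured a member. With each array centred on these shared probe sets limma called 0, with 10 at an unadjusted p under 0.05. Members measured on both chips, such as Traf5 and Cd40, therefore have signals on each chip that cannot be set side by side as levels.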

How the data were processed

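Total RNA of 1 group of myospheres was measured on 6 arrays, replicates 1 to 3 on each of MOE430A and MOE430B. The deposited values are signal intensity on a linear scale, made by the authors with MAS5, per the submitters' processing notes; no version is given in the sources used here, and detection calls were not used. The authors' scaling gave a mean signal of 1500.19 to 1500.76 on every array in the deposited tables after 2% of probe sets were trimmed from each end. The platform annotation gave 1 gene symbol to 20393 of the 22690 probe sets on MOE430A, several to 691 and none to 1606. For MOE430B it gave 1 symbol to 14674 of 22575, several to 245 and none to 7656. Genes of 20364 and 14499 of those with 1 symbol were matched in RefSeq (GRCm38.p6). Having 3 arrays per chip limits the precision.

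The limit of each array came from 151 probe sets on MOE430A and 44 on MOE430B, those of defensins, placental prolactins, gamma crystallins, keratin-associated proteins, sperm nuclear proteins, testis kinases and the taste, odorant and vomeronasal receptors. A probe set had to pass on 3 of 3 arrays. Log2 signals of replicate pairs correlated across probe sets, which are not independent replicates, with r of 0.916 to 0.922 for MOE430A and of 0.749 to 0.773 for MOE430B. Tests of replicates and of chips used limma 3.58.1 (R 4.3.3) on log2 signals, with Benjamini-Hochberg adjustment over all genes or probe sets fitted. The replicate fit had chip as covariate and an intensity trend, and so links same-numbered arrays of the chips. Their deviations correlated at -0.015, 0.437 and 0.1; the chip comparison was fitted without the number as a block.

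Alternatives were the 99th and 90th percentile, a limit from receptor families alone or at the array median, other choices of probe sets, chip, arrays or normalization, and each replicate left out. Named are all members above the limit, those above on some arrays, the cytokines Tnf, Lta, Ltb, Fasl and Cd40lg, and of each pathway list the members above, with values for the first 4. The members and lists were chosen with earlier results of these data known. The sort antigen's gene, Ly6a, and protein sequences were not analysed here. All other steps ran in Python 3.11.15 with numpy 2.4.6, pandas 2.3.3 and matplotlib 3.10.9.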

Additional observations from a re-analysis of the deposited data

Results flagged for a closer look

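Probe sets annotated to more than 1 gene were left out of the member counts, and 2 of them that name members or their relatives were above the limit on all 3 arrays. The probe set 1452440_at on MOE430A, annotated to Tnfsfm13 and Tnfsf12, the ligand of Tnfrsf12a, gave 1434, 1276 and 1486, a mean of 1398 ± 109 (SD, n = 3) and at least 1.63 times the limit. The probe set 1442590_at on MOE430B, annotated to Tnfrsf22 and Tnfrsf23, gave 9712, 6063 and 11104, a mean of 8960 ± 2603 and at least 2.07 times that chip's limit. A further one, 1418345_at, annotated to Tnfsfm13, Tnfsf13 and Tnfsf12, gave 630, 494 and 835 and was above on 1 array. Which of the annotated genes gave these signals was not tested.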

How the results depend on the processing

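Without 1 replicate the member count of 10 was 11 to 13. Of the 44 members, 17 passed with the 90th percentile, 22 with the array median as limit and 17 with 2 of 3 arrays required. All genes gave 41.9%, 53.8% and 42.3% under these 3 settings. The members' shares stayed below these, but by less than the reported 22.7% lay below 36.2%. The ligand count of 1 was 4, 5 and 4 under the same settings, 2 with receptor families alone and 1 to 3 without 1 replicate. With the array median the receptor count of 5 was 10 and the TRAF-named count of 4 was 7, and with the 99th percentile the latter was 2. All other alternatives left these counts and the pathway count, 38 to 53 of the genes measured, within 1.5 times the reported value. Over the alternatives and all 44 members, a call was gained 35 times and lost 6 times. Several alternatives could add calls but remove none: the 90th percentile, the array median, 2 of 3 arrays and each replicate left out. limma's replicate count of 7 was 4 with median centring, 0 with quantile normalization (36 unadjusted), 0 without the intensity trend (56 unadjusted), 0 without the filter on low signal (92 unadjusted) and 0 to 7 without 1 replicate. The chip count of 100 stayed 100 with a replicate block, was 98 to 100 without 1 replicate and 0 with arrays centred on the shared probe sets. The cause of these shifts was not tested. Members near the limit, such as Traf2, cannot be placed on either side of it with 3 arrays.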
